A study of Mus musculus with 23 samples.

Results

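Cholesterol synthesis and SREBP2 control were followed through 26 genes in mouse liver: the enzymes from acetyl-CoA to cholesterol, the proteins that govern the transcription factor SREBP2, and a few proteins that move sterols or regulate their uptake. The members were taken by symbol from a list of pathway genes, drawn up with earlier results of these data known, and all 26 were found among the 24440 genes of the deposited count table. Of these, 25 passed the filter on low counts and were tested among 12891 genes. Npc1l1, the intestinal cholesterol importer, did not pass, with 0 to 4 counts in a library.

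The libraries were made from perfused livers of male mice on a C57Bl6 background, bought from Taconic at 6 to 8 weeks of age and then fed for 15 weeks. The groups are mice labelled IL-10/4 dKO on the high-fat diet (dKO_HFD) and on chow (dKO_chow), mice labelled IL-4 KO on the high-fat diet (IL4KO_HFD) and on chow (IL4KO_chow), and wild-type mice on the high-fat diet (WT_HFD) and on chow (WT_chow). In the high-fat diet 60% of the energy came from fat. There were 4 mice in each group and 3 in IL4KO_HFD, 23 in all. IL-4 is missing by label from both knockout lines. By label, a comparison of dKO with IL4KO concerns the further loss of IL-10, together with any other difference between these lines. If the labels hold, both deletions are carried by every cell of the animal, not by the liver alone.

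Cholesterol is built from acetyl-CoA through mevalonate, squalene and lanosterol. When sterols in the endoplasmic reticulum are scarce, SCAP escorts SREBP2 to the Golgi, where it is cut, and its freed end enters the nucleus and switches on most genes of the pathway. When sterols are plentiful, INSIG proteins hold SCAP back. In liver this loop answers to cholesterol arriving from the diet and lipoproteins and to cholesterol leaving as bile acids.

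SREBP2 works from short promoter elements, usually beside boxes for NF-Y and Sp1. RefSeq promoter sequences on GRCm38.p6 were matched by symbol for 22 members, and the 250 bases before each annotated start were searched on both strands. The sterol response element was searched as TCACNCCA. CCAAT was the motif for the NF-Y box. Below are the 3 members whose window held TCACNCCA, and Mvd, the member with the largest log2 fold change for the diet in dKO. The sequences run in the direction of transcription, and capitals mark TCACNCCA and CCAAT. Where the NF-Y box lies on the other strand it reads ATTGG.
Hmgcs1: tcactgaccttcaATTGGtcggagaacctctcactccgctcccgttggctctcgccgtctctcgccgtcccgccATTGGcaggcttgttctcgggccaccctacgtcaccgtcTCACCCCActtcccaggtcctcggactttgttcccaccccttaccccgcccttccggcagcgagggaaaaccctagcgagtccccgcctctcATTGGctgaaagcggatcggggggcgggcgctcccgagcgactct
Srebf2: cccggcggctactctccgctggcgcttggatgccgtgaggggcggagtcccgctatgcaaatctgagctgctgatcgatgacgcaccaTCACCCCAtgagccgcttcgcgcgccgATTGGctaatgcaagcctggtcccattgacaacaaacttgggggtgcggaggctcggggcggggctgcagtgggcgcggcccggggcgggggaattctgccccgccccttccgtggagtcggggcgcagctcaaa
Msmo1: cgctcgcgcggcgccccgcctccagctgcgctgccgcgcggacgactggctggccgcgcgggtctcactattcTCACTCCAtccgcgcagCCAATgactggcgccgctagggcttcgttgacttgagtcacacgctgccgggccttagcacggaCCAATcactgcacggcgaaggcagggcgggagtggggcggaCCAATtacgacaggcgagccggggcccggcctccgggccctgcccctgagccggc
Mvd: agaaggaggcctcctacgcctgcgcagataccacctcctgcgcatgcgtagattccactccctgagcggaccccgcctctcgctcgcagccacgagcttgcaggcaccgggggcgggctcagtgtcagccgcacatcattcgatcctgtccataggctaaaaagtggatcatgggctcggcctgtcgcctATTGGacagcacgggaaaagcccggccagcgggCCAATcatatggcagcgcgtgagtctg

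On GRCm38 these windows are chr13:119690101-119690350 (plus strand) for Hmgcs1, chr15:82147019-82147268 (plus strand) for Srebf2, chr8:64733579-64733828 (minus strand) for Msmo1 and chr8:122443423-122443672 (minus strand) for Mvd. TCACNCCA lay 137 to 130 bases before the start in Hmgcs1, which encodes the cytosolic HMG-CoA synthase, 162 to 155 before it in Srebf2, which encodes SREBP2, and 177 to 170 before it in Msmo1, a sterol C4 demethylating oxidase. It was found in 13.6% of the 22 members and in 4.2% of the 27025 genes with a promoter in the table. CCAAT was found in 20 of 22 members (90.9%) and in 37.5% of all genes. GGGCGG, the Sp1 box, was likewise in 20 of 22 (90.9%), against 35.4%. CACGTG, the E-box, was in 5 of 22 (22.7%), against 6.86%. A gene counts here if any of its annotated starts has the motif, and matches of different motifs may overlap. The matches describe letters in these windows, and binding was not measured.

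**Figure D1:**
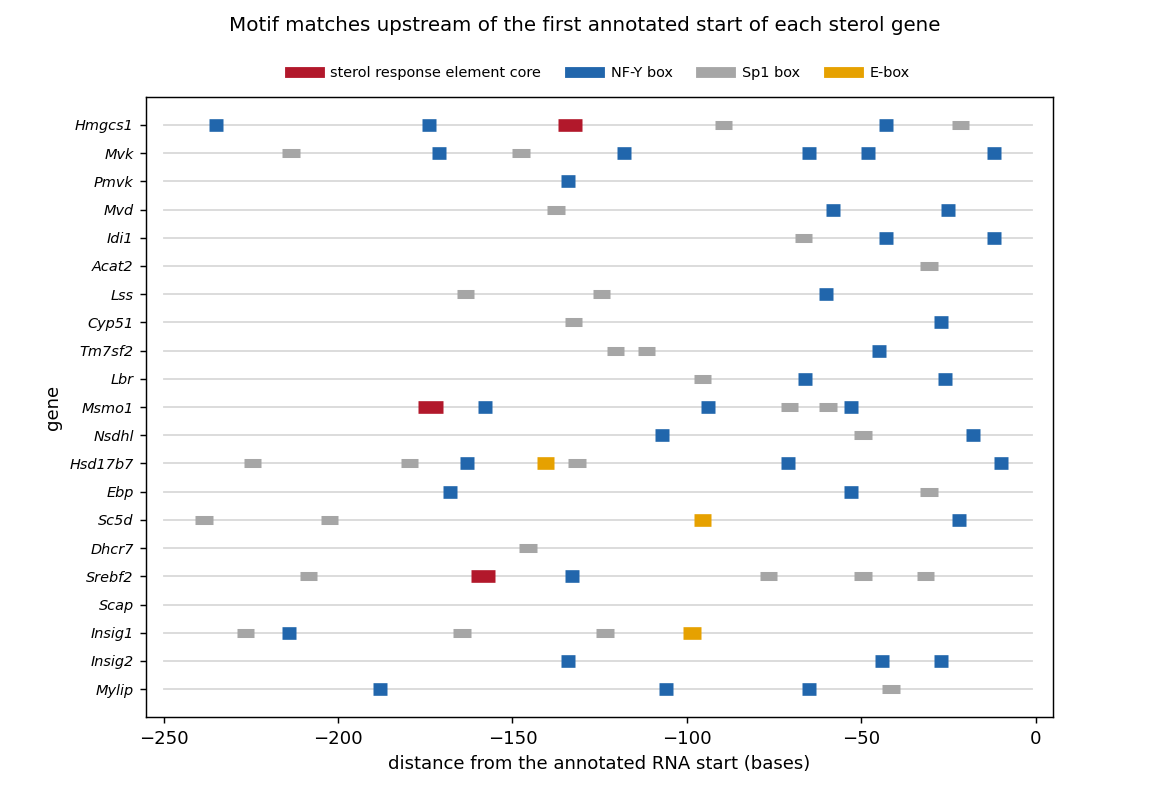
Positions of the searched motifs in the 250 bases before the first annotated start of each tested member with a RefSeq promoter; the x axis is the distance from the start in bases and each line is 1 gene. The sterol response element (red) appears in Hmgcs1, Msmo1 and Srebf2. The Scap window drawn has no match, while the window of another annotated Scap start, not drawn, holds an E-box and an Sp1 box.

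The libraries held 7114459 to 30205078 estimated counts in total. Every dKO_chow library held at least 16220798 and every IL4KO_HFD library at most 8935353. Of the targeted genes, Il4 was at 0 in every WT library and at 0 to 3 counts in the knockout ones, so its counts cannot check the IL-4 label. Il10 had 6 to 21 counts in dKO_HFD, 41 to 67 in dKO_chow and 0 to 4 in all other groups. Il10 thus had more counts in the dKO libraries than elsewhere, which goes against their label. Counts per gene do not show whether those reads lie inside the deleted stretch, and every direction given for dKO below is that of the libraries labelled dKO. Hepatocyte markers led the libraries, with Alb at 59200 CPM or more (CPM, counts scaled to a common library total). Levels below are CPM scaled by trimmed mean of M values, and a called difference has an FDR below 0.05 in edgeR's quasi-likelihood test, two-sided, adjusted over all 12891 genes.

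Cholesterol synthesis genes had their highest mean level in dKO livers on chow. Averaged over the 25 tested members, the level in a library (log2 CPM centred on the mean of all libraries) was 0.18 to 0.61 in dKO_chow, against -0.29 to -0.14 in IL4KO_chow and -0.06 to 0.39 in WT_chow. On the high-fat diet it was -0.46 to 0.21 in dKO, -0.78 to -0.05 in IL4KO and -0.32 to 0.25 in WT. The dKO_chow libraries all stood above every IL4KO_chow library, while they overlapped WT_chow, and dKO_HFD overlapped WT_HFD. In bulk tissue fewer cells of a type and less RNA per cell cannot be told apart. Most members varied together: the first principal component held 71.5% of their variance over the 23 libraries, against 39% for all tested genes. As a description over 23 libraries that share groups and depth, Fdps, the farnesyl diphosphate synthase, followed the mean of the other members most closely (r = 0.98, or 0.96 over the 19 libraries outside dKO_chow). Lss, Fdft1, Cyp51 and Dhcr7 lay at 0.95 to 0.96. Mylip ran the other way (r = -0.48, or -0.61 outside dKO_chow). Insig2 was at -0.24 over the 23 libraries and at -0.01 outside dKO_chow.

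**Figure D2:**
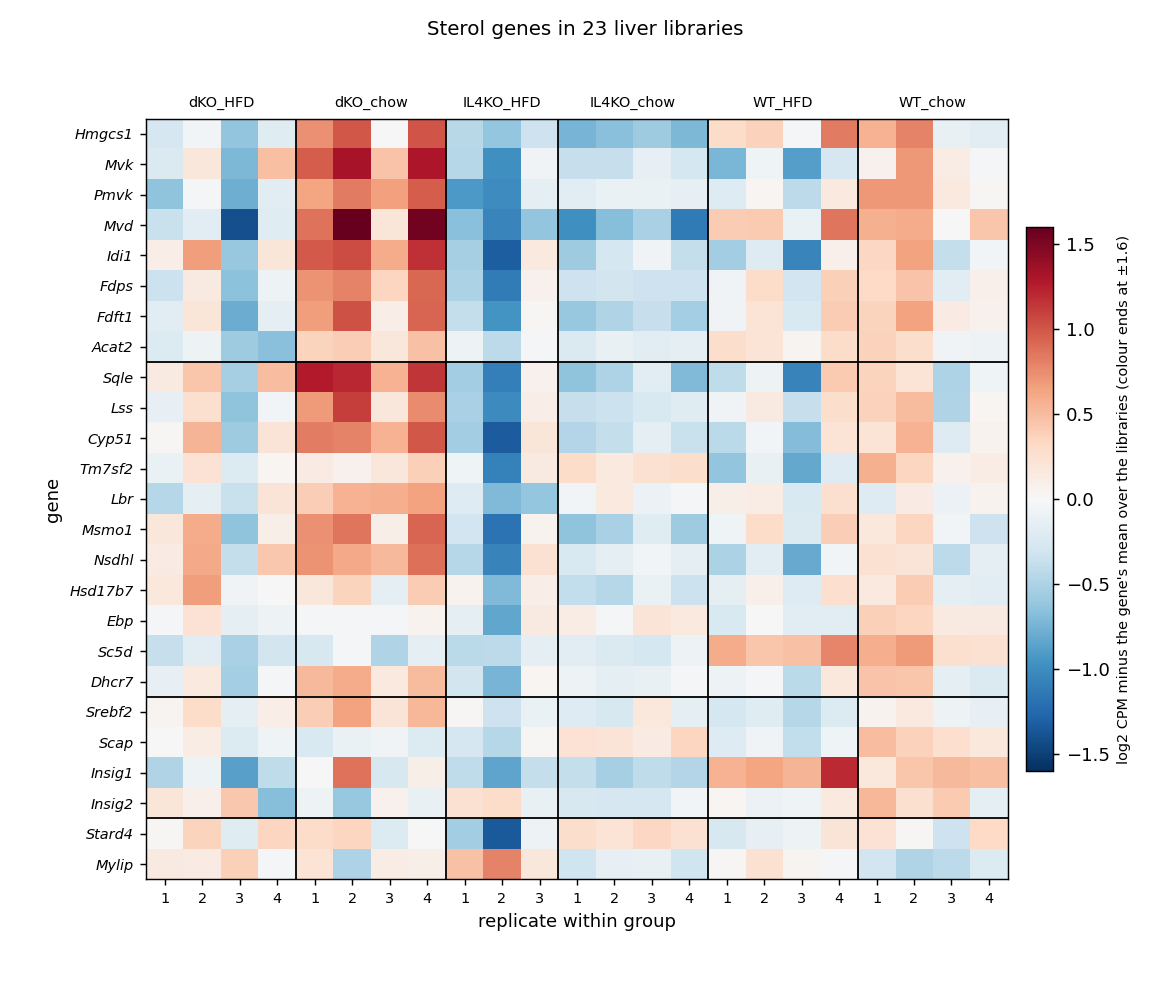
Centred log2 CPM of the 25 tested members (rows, by role in the pathway) in the 23 libraries (columns, by group); red is above and blue below the mean of all libraries. Most enzyme genes are red in dKO_chow and blue in IL4KO_chow, whereas Scap, Insig2 and Mylip do not follow them.

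On chow, 18 of 25 members were higher and 1 was lower in dKO than in IL4KO livers, while 45.2% of all tested genes were called in this comparison (23% higher). The higher members were 8 of 8 genes from acetyl-CoA to squalene, 8 of 11 from squalene to cholesterol, and Srebf2 and Insig1. The median log2 fold change of the 25 was 0.69, against 0.01 over all tested genes. In 17 of the 25 members every dKO_chow library lay above every IL4KO_chow library, a pattern shown by 23.4% of all tested genes. Leaving out any 1 of the 23 libraries gave 18 or 19 called members.

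Set against WT on chow, dKO livers had 8 members higher (24.4% of all tested genes) and 3 lower (21.9%), so the called share of 11 of 25 was close to the 46.3% of all genes called. The higher members were Mvk, Mvd, Idi1, Sqle, Nsdhl, Lbr, Srebf2 and Mylip, and the lower ones Sc5d, Insig2 and Scap. The median over the members was 0.41, against 0.02 over all genes. The dKO_chow libraries lay wholly above WT_chow in 5 members and wholly below in 3, as in 23.7% and 20.1% of all genes. This count depended on single libraries: it was 6 without WT_chow replicate 3 or without dKO_chow replicate 4, and up to 16 without IL4KO_HFD replicate 3.

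**Figure D3:**
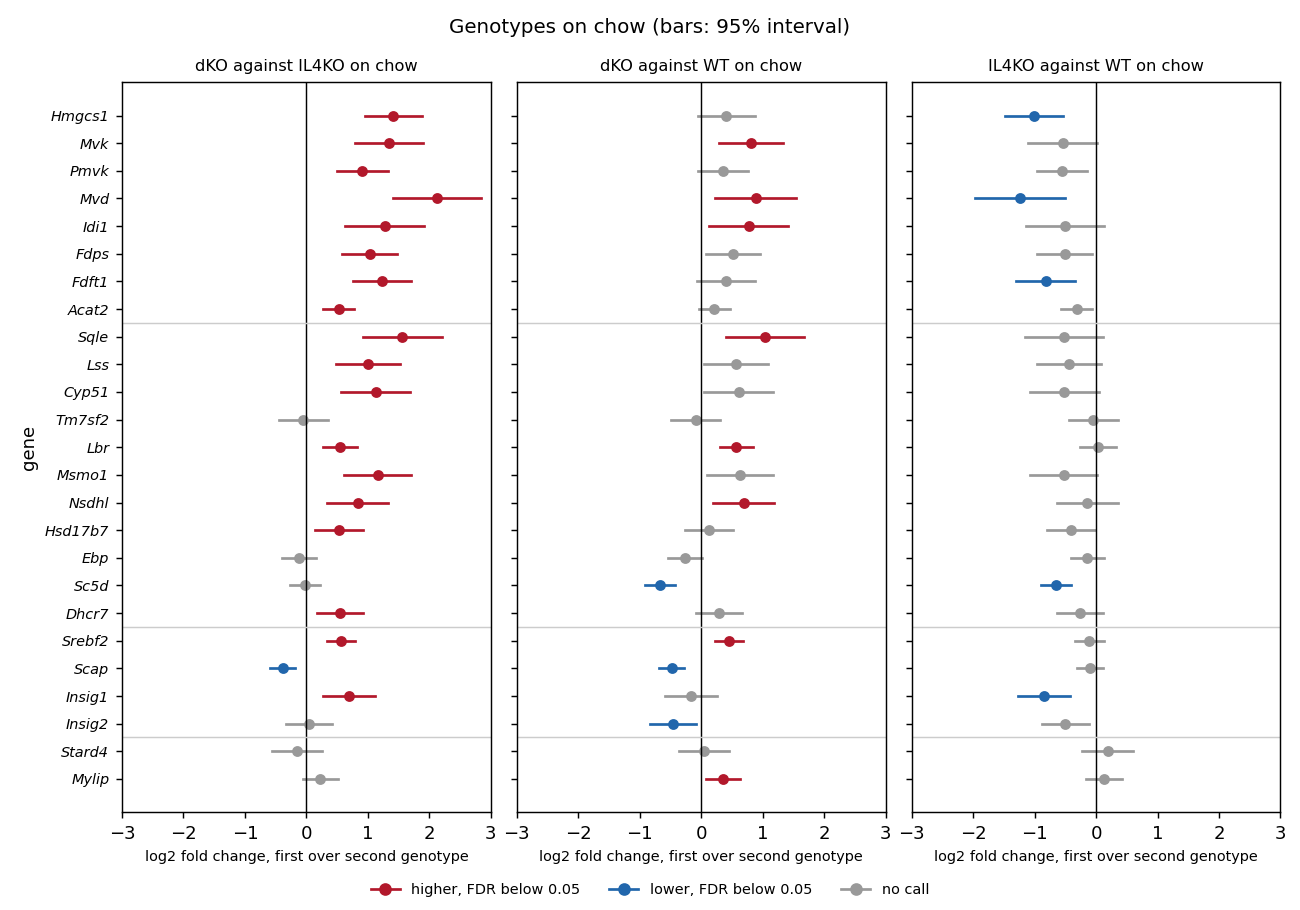
Log2 fold changes of the 25 tested members on chow for dKO over IL4KO, dKO over WT and IL4KO over WT, with 95% intervals; red (higher) and blue (lower) points are called and grey ones are not. The 18 called positive points of dKO over IL4KO lie between 0.53 and 2.13.

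In IL4KO livers some genes of the pathway were lower than in WT on chow. Of 25 members 5 were lower and 0 higher, where 3.68% of all tested genes were lower, 5.93% higher and 9.61% called. They were Hmgcs1, Mvd, Fdft1, Sc5d and Insig1, and the median log2 fold change of the 25 was -0.50, against -0.01 over all genes. In 9 members every IL4KO_chow library was below every WT_chow library, as in 8.08% of all genes. At an unadjusted p under 0.05 the count was 10 members. Fitting the 8 libraries of these groups alone gave 12 called, and leaving out 1 library gave 3 to 7, with 3 without WT_chow replicate 2 or IL4KO_chow replicate 1, 2 or 4. Between IL4KO and WT on the high-fat diet 3 members were lower (Sc5d, Insig1 and Lbr), where 1.29% of all genes were lower, 1.73% higher and 3.02% called. In 5 members IL4KO_HFD lay wholly below WT_HFD and in 0 wholly above it, as in 6.42% and 7.13% of all genes. DESeq2 called 5.

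In dKO livers most genes of the pathway were lower on the high-fat diet than on chow: 15 of 25 members fell and 0 rose, where 20.5% of all tested genes fell and 40% were called. All 8 genes from acetyl-CoA to squalene fell, and 5 of 11 from squalene to cholesterol (Sqle, Lss, Cyp51, Lbr and Dhcr7), together with Insig1 and Srebf2. The median was -0.68, against -0.02 over all genes. In 9 members no dKO_HFD library reached the lowest dKO_chow library, as in 17.3% of all genes. Without 1 library the count ran from 10 (without dKO_HFD replicate 3) to 16. The libraries of dKO_chow enter this comparison and both chow comparisons of dKO above, so these results share samples.

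The same diet called 16% of the members in WT and 12% in IL4KO, shares near those of all tested genes. In WT livers 3 members fell (Tm7sf2, Ebp and Scap) and Mylip rose, where 19.5% of all genes were called (9.84% lower and 9.63% higher), and the median was -0.21. That count was 1 without WT_HFD replicate 3 and 2 without WT_HFD replicate 1 or WT_chow replicate 2. In IL4KO livers Scap and Stard4 fell and Mylip rose, where 9.08% of all genes were called (3.94% lower and 5.14% higher). Here 0 were called without IL4KO_HFD replicate 2 and 6 without IL4KO_HFD replicate 3. IL4KO_HFD replicate 2 stood apart from its group, with the lowest member level of all 23 libraries (-0.78), a hepatocyte marker level of -0.45 and a monocyte-derived macrophage marker level of 1.72; their part in the result was not tested.

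**Figure D4:**
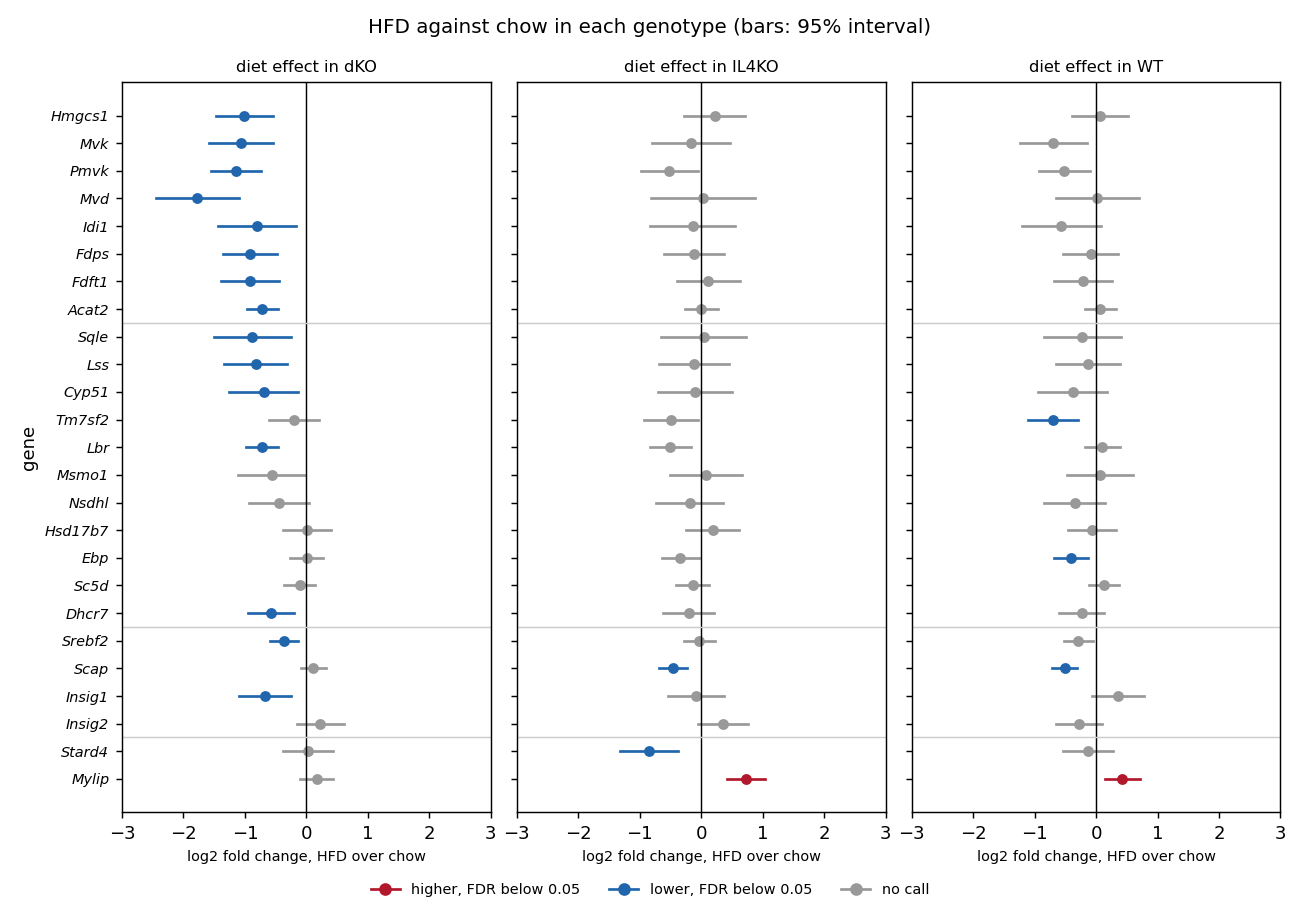
Log2 fold changes of the 25 tested members for the high-fat diet over chow in dKO, IL4KO and WT livers, with 95% intervals; red (higher) and blue (lower) points are called and grey ones are not. Of the called points in dKO all 15 are negative and Mvd lies farthest out at -1.78.

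Between dKO and WT on the high-fat diet, Srebf2 was higher and 5 members were lower (Hmgcs1, Mvd, Sc5d, Acat2 and Insig1), where 24.5% of all tested genes were called (12.9% higher and 11.6% lower). The median over the members was 0.05. The dKO_HFD libraries lay wholly above WT_HFD in 1 member and wholly below in 5, as in 12.9% and 12.1% of all genes. Between dKO and IL4KO on the high-fat diet edgeR called 0 members, where 2.51% of all genes were called. The groups lay apart in 0 members, against 5.71% of all genes with dKO_HFD wholly above and 5.66% with it wholly below. At an unadjusted p under 0.05 the count was 4, and DESeq2 called 1 and limma-voom 0. Without IL4KO_HFD replicate 3 edgeR called 5, and without dKO_HFD replicate 3 it called 1.

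The first steps join acetyl-CoA units and reduce them to mevalonate. Hmgcs1 stood at 427, 499, 333 and 450 CPM in dKO_HFD, against 858, 1030, 515 and 1040 CPM in dKO_chow. It was at 380, 334 and 411 CPM in IL4KO_HFD and at 307, 323, 347 and 312 CPM in IL4KO_chow, against 629, 663, 504 and 915 CPM in WT_HFD and 755, 897, 476 and 460 CPM in WT_chow. All dKO_HFD libraries were below all dKO_chow libraries, and all IL4KO_chow libraries were below all WT_chow libraries. Its log2 fold change for the diet in dKO was -1.01 (SE 0.224, FDR 0.00141), and for IL4KO over WT on chow also -1.01 (SE 0.224, FDR 0.00664). It was 1.42 for dKO over IL4KO on chow (SE 0.226, FDR 5.32e-05). With high-fat feeding dKO was below WT by a log2 fold change of -0.67 (SE 0.223, FDR 0.0335). That last call ended without WT_HFD replicate 2 or 4 or dKO_HFD replicate 1, 3 or 4, and was weakest without WT_HFD replicate 4 (-0.49, FDR 0.133).

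Acat2, the cytosolic acetoacetyl-CoA thiolase, stood at 120, 132, 94 and 88 CPM in dKO_HFD, against 178, 183, 158 and 193 CPM in dKO_chow. These ranges did not overlap, and the log2 fold change was -0.72 (SE 0.121, FDR 0.000121). In dKO_HFD it was also below WT_HFD, whose livers held 169, 162, 144 and 172 CPM (-0.58, SE 0.121, FDR 0.00179). On chow it was higher in dKO than in IL4KO (0.53, SE 0.121, FDR 0.00134), where IL4KO_chow held 119, 129, 123 and 125 CPM. Its counts are uncertain, because 39.1% of its 50-base exon words also occur in Acat3 and its estimated counts were fractional in all 23 libraries.

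Mvk and Pmvk, the kinases that phosphorylate mevalonate in turn, moved with Hmgcs1 in dKO. Mvk held 21.5, 28.7, 15.4 and 35.5 CPM in dKO_HFD, against 49.8, 63.4, 34.7 and 62.1 CPM in dKO_chow. The highest dKO_HFD library reached just above the lowest dKO_chow library, and the log2 fold change was -1.06 (SE 0.249, FDR 0.00246). On chow Mvk in dKO was above IL4KO, with 19.7, 19.6, 23.2 and 20.8 CPM there (1.34, SE 0.261, FDR 0.000414). It was also above WT, with 26.6, 41.2, 27.6 and 24.8 CPM there (0.81, SE 0.25, FDR 0.0133). Pmvk was at 47.6, 73.6, 43.3 and 66.2 CPM in dKO_HFD, against 116, 132, 117 and 145 CPM in dKO_chow, with no overlap (-1.15, SE 0.196, FDR 0.00019). On chow it was higher in dKO than in IL4KO (0.91, SE 0.197, FDR 0.000979).

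Mvd, which decarboxylates mevalonate diphosphate, had the largest log2 fold change of the members for the diet in dKO, for dKO over IL4KO on chow and for IL4KO over WT on chow. It held 18.9, 21.3, 9.06 and 21.1 CPM in dKO_HFD, against 44.4, 95.8, 27.8 and 70.8 CPM in dKO_chow. It held 15.2, 11.5 and 15.5 CPM in IL4KO_HFD and 12.1, 15, 16.9 and 11 CPM in IL4KO_chow, against 32.1, 32.4, 22.5 and 43.8 CPM in WT_HFD and 36.1, 36.7, 24.3 and 32.9 CPM in WT_chow. Every dKO_HFD library was below every dKO_chow library, and both IL4KO groups were below their WT groups without overlap. The dKO_chow libraries themselves spread widely, with replicate 2 the highest and replicate 3 the lowest.

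Its log2 fold change was -1.78 for the diet in dKO (SE 0.321, FDR 0.000361) and 2.13 for dKO over IL4KO on chow (SE 0.342, FDR 8.56e-05), a fold of 4.36. It was -1.24 for IL4KO over WT on chow (SE 0.348, FDR 0.0294), a call that ended without WT_chow replicate 1 or 2 or IL4KO_chow replicate 1, 2 or 4 (FDR up to 0.0782), or with limma-voom. For IL4KO over WT on the high-fat diet the value was -1.23 and missed the threshold (SE 0.382, FDR 0.0922). For Mvd in dKO over WT on chow the value was 0.88 (SE 0.313, FDR 0.0277), and it dropped to 0.55 (FDR 0.144) without dKO_chow replicate 2. That call also ended without WT_chow replicate 3 or 4 or dKO_chow replicate 4, with limma-voom and with the compared groups alone. In dKO_HFD Mvd was below WT_HFD (-0.92, SE 0.324, FDR 0.0468), a call that ended in 15 of the 23 fits without 1 library, with an FDR of up to 0.144 without WT_HFD replicate 4.

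Idi1, the isopentenyl diphosphate isomerase, held 370, 547, 226 and 394 CPM in dKO_HFD, against 679, 711, 521 and 774 CPM in dKO_chow. Replicate 2 of dKO_HFD lay above the lowest dKO_chow library. The log2 fold change was -0.80 (SE 0.305, FDR 0.0424). That call ended in 8 of the 23 fits without 1 library and was weakest without dKO_HFD replicate 3 (-0.61, FDR 0.132); it also ended with no filter on low counts and with thinning to the smallest library. On chow Idi1 was higher in dKO than in IL4KO (1.27, SE 0.308, FDR 0.00252). It was higher than in WT by 0.77 (SE 0.305, FDR 0.0451), a call lost in 14 of the 23 fits and weakest without WT_chow replicate 3 (0.61, FDR 0.139). Of the 50-base exon words of Idi1 17.7% also occur in Gm13502.

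Fdps varied little in IL4KO_chow, at 70.6, 72, 70.6 and 70.6 CPM, against 111, 122, 78.8 and 93.3 CPM in WT_chow. The ranges did not overlap, but the log2 fold change of -0.51 missed the threshold (SE 0.216, FDR 0.146). In dKO it held 69.6, 97.6, 56.2 and 83.5 CPM on the high-fat diet, against 146, 154, 112 and 167 CPM on chow, also without overlap (-0.92, SE 0.213, FDR 0.00227). Its dKO over IL4KO value on chow was 1.03 (SE 0.216, FDR 0.00076). Of its 50-base exon words 26.2% occur in other genes, chiefly Gm43738.

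Fdft1, squalene synthase, held 108, 141, 71.1 and 110 CPM in dKO_HFD, against 196, 249, 133 and 235 CPM in dKO_chow, where only dKO_HFD replicate 2 reached above the lowest chow library. The diet value in dKO was -0.92 (SE 0.225, FDR 0.00322). On chow Fdft1 in dKO exceeded IL4KO (1.23, SE 0.228, FDR 0.000265). In IL4KO_chow it held 80.8, 87.7, 94.8 and 84.4 CPM, against 158, 192, 135 and 129 CPM in WT_chow (-0.82, SE 0.227, FDR 0.0267). That call ended without WT_chow replicate 2 or IL4KO_chow replicate 1, 2 or 4 (FDR up to 0.0816). Exons of Ctsb on the opposite strand cover 18.3% of the Fdft1 exons, and the strand setting used in counting is not stated in the labels. Of the 50-base exon words of Fdft1 9.38% also occur in Gm6781.

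Squalene is then oxidised by Sqle and closed to lanosterol by Lss. Sqle held 154, 190, 96.9 and 196 CPM in dKO_HFD, against 337, 322, 206 and 308 CPM in dKO_chow. On chow IL4KO held 88.9, 99.1, 124 and 85.7 CPM and WT held 179, 162, 99.5 and 133 CPM. All dKO_chow libraries were above all libraries of the other 3 of these groups. The log2 fold change was 1.56 for dKO over IL4KO on chow (SE 0.306, FDR 0.000477), 1.03 for dKO over WT on chow (SE 0.301, FDR 0.00921) and -0.88 for the diet in dKO (SE 0.3, FDR 0.0257). The diet call ended without dKO_chow replicate 1, 2 or 4 or dKO_HFD replicate 1 or 3 (FDR up to 0.0858, at -0.70 without dKO_HFD replicate 3).

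Lss held 87.5, 114, 60.9 and 92.4 CPM in dKO_HFD, against 154, 206, 109 and 161 CPM in dKO_chow (-0.83, SE 0.246, FDR 0.0122). Its ranges overlapped through dKO_HFD replicate 2, and without dKO_chow replicate 2 and dKO_HFD replicate 4 together the FDR was 0.0633. On chow Lss was higher in dKO than in IL4KO (1.01, SE 0.249, FDR 0.00295). Cyp51, the lanosterol demethylase, held 258, 370, 172 and 293 CPM in dKO_HFD, against 447, 440, 374 and 505 CPM in dKO_chow. The highest dKO_HFD library lay just below the lowest dKO_chow library, and the value was -0.69 (SE 0.267, FDR 0.0459). The call ended in 15 of the 23 fits without 1 library, at an FDR of up to 0.145 without dKO_HFD replicate 3, and also with no filter on low counts and with thinning. Its dKO over IL4KO value on chow was 1.13 (SE 0.27, FDR 0.00229).

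The 3 genes that remove or process the methyl groups at carbon 4 of the sterol ring, Msmo1, Nsdhl and Hsd17b7, were higher in dKO than in IL4KO on chow but were not called for the diet in dKO. Msmo1 held 386, 423, 249 and 445 CPM in dKO_chow, against 150, 164, 203 and 157 CPM in IL4KO_chow, without overlap (1.16, SE 0.262, FDR 0.00146). Its diet value in dKO was -0.56 (SE 0.259, FDR 0.0891), with a 95% interval of -1.11 to -0.02. Nsdhl held 228, 210, 197 and 255 CPM in dKO_chow, against 116, 124, 134 and 125 CPM in IL4KO_chow and 164, 160, 103 and 124 CPM in WT_chow. All dKO_chow libraries were above all of both, with values of 0.83 over IL4KO (SE 0.237, FDR 0.00768) and 0.69 over WT (SE 0.236, FDR 0.0221). The call over WT ended without WT_chow replicate 3 or 4 or dKO_chow replicate 4 (FDR up to 0.0791). For Hsd17b7 the value over IL4KO was 0.53 (SE 0.187, FDR 0.0254), with overlapping ranges. It ended without IL4KO_chow replicate 1, 2 or 4 or dKO_chow replicate 2 or 4 (FDR up to 0.0722).

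Lbr and Tm7sf2, which encode proteins with sterol C14 reductase activity, differed in the comparisons that called them. Lbr held 9.56, 12, 10.2 and 15.2 CPM in dKO_HFD, against 17.3, 19.5, 19.7 and 20.7 CPM in dKO_chow, without overlap (-0.72, SE 0.129, FDR 0.000196). On chow it was higher in dKO than in IL4KO (0.55, SE 0.134, FDR 0.00218) and than in WT (0.57, SE 0.131, FDR 0.00126). On the high-fat diet it was lower in IL4KO than in WT (-0.58, SE 0.156, FDR 0.0451), a call lost in 16 of the 23 fits without 1 library (FDR up to 0.164 without IL4KO_HFD replicate 3).

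Tm7sf2 was called for the diet in WT alone among the diet comparisons, at 89.4, 128, 78.4 and 120 CPM in WT_HFD, against 205, 176, 146 and 150 CPM in WT_chow. These groups did not overlap (-0.70, SE 0.194, FDR 0.0151), and without WT_HFD replicate 3 the FDR was 0.0533. In dKO its diet value was -0.20 (SE 0.192, FDR 0.426), and the difference between the dKO and WT diet effects was not called (0.50, SE 0.272, FDR 0.182). Vps51 shares 12.1% of the Tm7sf2 exon bases on the same strand.

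The last enzymes shift and reduce the double bonds of the ring. Ebp, the sterol isomerase, fell with the diet in WT to 189, 224, 197 and 198 CPM in WT_HFD, against 293, 284, 246 and 247 CPM in WT_chow, without overlap (-0.40, SE 0.132, FDR 0.0346). That call ended without WT_chow replicate 1 or 2 or WT_HFD replicate 1, 3 or 4 (FDR up to 0.0808). Dhcr7, the 7-dehydrocholesterol reductase, held 126, 152, 94 and 135 CPM in dKO_HFD, against 197, 207, 153 and 196 CPM in dKO_chow, with its ranges just apart (-0.57, SE 0.179, FDR 0.0155). Without dKO_HFD replicate 3 the value was -0.44 (FDR 0.0624). On chow Dhcr7 was higher in dKO than in IL4KO (0.55, SE 0.18, FDR 0.017).

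Sc5d, the sterol C5 desaturase, was lower in both knockout lines than in WT on both diets. Its r with the mean of the other members was 0.29 over the 23 libraries and 0.62 outside dKO_chow. On the high-fat diet it held 429, 495, 387 and 455 CPM in dKO and 413, 415 and 498 CPM in IL4KO, against 835, 758, 769 and 959 CPM in WT. On chow it held 463, 550, 396 and 498 CPM in dKO and 492, 472, 456 and 524 CPM in IL4KO, against 834, 887, 663 and 660 CPM in WT. Every library of both knockout lines was below every WT library. The log2 fold change over WT was -0.91 for dKO (SE 0.119, FDR 2.09e-05) and -0.91 for IL4KO (SE 0.131, FDR 0.000229) on the high-fat diet. On chow it was -0.67 for dKO (SE 0.119, FDR 0.000112) and -0.65 for IL4KO (SE 0.119, FDR 0.00121). None of these 4 calls was lost in any setting tried. Between dKO and IL4KO the values were -0.00 on the high-fat diet (95% interval -0.27 to 0.26) and -0.03 on chow (95% interval -0.27 to 0.22). Both comparisons with WT on a diet share the same WT libraries. No diet effect on Sc5d was called in any genotype.

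**Figure D5:**
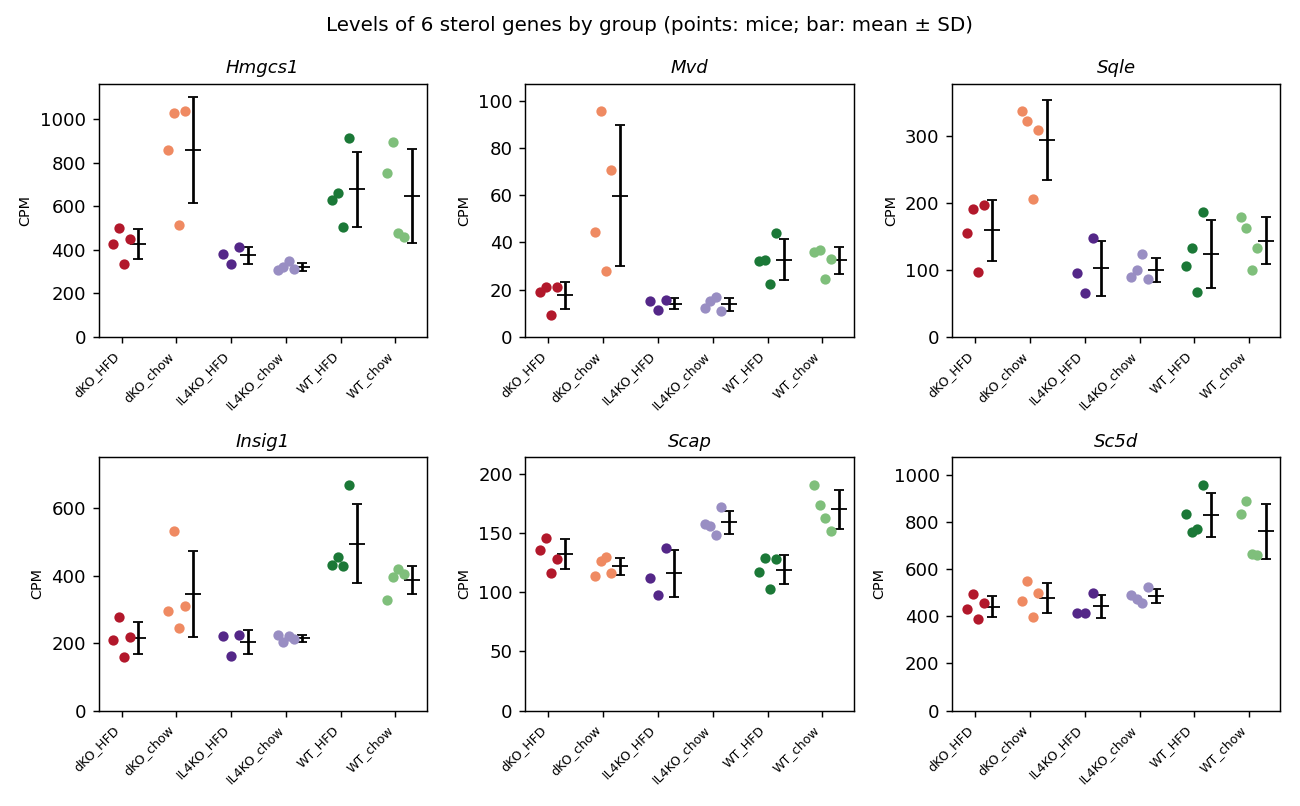
CPM of 6 members in every library (points) by group, with black bars for the group mean ± SD; the y axes start at 0. Sqle is higher in every dKO_chow library than in any other library, Sc5d is lower in every library of both knockout lines than in WT, and Scap is higher in IL4KO_chow and WT_chow than in dKO_chow.

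Srebf2, which encodes SREBP2 itself, was called in 4 comparisons that involve dKO. It held 74.4, 88.5, 64.3 and 77.6 CPM in dKO_HFD, against 94.7, 112, 83 and 104 CPM in dKO_chow, where dKO_HFD replicate 2 overlapped the lowest chow library (-0.37, SE 0.111, FDR 0.0109). Without dKO_HFD replicate 3 the value was -0.29 (FDR 0.0525). On chow the dKO libraries lay above all WT libraries, at 74.7, 80.4, 68 and 65.5 CPM (0.45, SE 0.111, FDR 0.00241), and above all IL4KO libraries, at 62.1, 60.1, 81.1 and 64.4 CPM (0.56, SE 0.112, FDR 0.000369). On the high-fat diet dKO was above WT, with 59.2, 62.7, 52.4 and 61.7 CPM there (0.37, SE 0.112, FDR 0.02), and the call ended without WT_HFD replicate 3 (FDR 0.0643) or dKO_HFD replicate 2 (FDR 0.079). Mature nuclear SREBP2 protein was not measured.

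Scap, the escort of SREBP2, was lower in dKO on chow, at 114, 126, 130 and 116 CPM in dKO_chow, against 158, 156, 148 and 172 CPM in IL4KO_chow and 191, 174, 163 and 152 CPM in WT_chow. All dKO_chow libraries were below all of both, with log2 fold changes of -0.38 over IL4KO (SE 0.0989, FDR 0.00324) and -0.48 over WT (SE 0.0988, FDR 0.000475). With the diet Scap fell in WT, to 117, 129, 103 and 128 CPM in WT_HFD (-0.51, SE 0.0991, FDR 0.00131). It fell in IL4KO, to 112, 98 and 137 CPM in IL4KO_HFD (-0.45, SE 0.108, FDR 0.0117), though the FDR was 0.134 at -0.34 without IL4KO_HFD replicate 2. In dKO the diet value was 0.11 (SE 0.0985, FDR 0.378), with 136, 146, 116 and 128 CPM in dKO_HFD.

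Insig1, which retains SCAP when sterols are plentiful and is itself an SREBP target, held 209, 276, 160 and 219 CPM in dKO_HFD and 221, 162 and 225 CPM in IL4KO_HFD, against 431, 454, 427 and 670 CPM in WT_HFD. Every knockout library was below every WT library on this diet, with log2 fold changes of -1.20 for dKO (SE 0.204, FDR 0.000366) and -1.29 for IL4KO (SE 0.226, FDR 0.00244), which share the WT libraries. On chow it held 294, 532, 244 and 311 CPM in dKO and 224, 202, 221 and 211 CPM in IL4KO, against 327, 396, 419 and 406 CPM in WT. IL4KO_chow lay wholly below WT_chow (-0.85, SE 0.203, FDR 0.0104), and dKO_chow overlapped it (-0.16, SE 0.201, FDR 0.527).

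In dKO_chow replicate 2 was far above the other 3 for Insig1, and it set the size of both results that follow. The diet value in dKO was -0.68 (SE 0.202, FDR 0.0114), and -0.39 (FDR 0.0776) without that library, and the call also ended with the compared groups alone. The value for dKO over IL4KO on chow was 0.69 (SE 0.202, FDR 0.00895), and 0.40 (FDR 0.0598) without it. Insig2, the other INSIG protein, held 445, 309, 491 and 432 CPM in dKO_chow, against 681, 562, 629 and 426 CPM in WT_chow. These ranges overlapped (-0.45, SE 0.181, FDR 0.0448). That call ended in 9 of the 23 fits without 1 library, at an FDR of up to 0.144 without dKO_chow replicate 2, and under 6 other settings, among them limma-voom. The estimated counts of Insig2 were fractional in 22 of the 23 libraries.

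The remaining members concern the uptake and transport of sterols; Npc1l1 is given above. Stard4, a carrier of cholesterol between membranes, held 28.6, 16.4 and 39.7 CPM in IL4KO_HFD, against 51.1, 49, 52.9 and 50 CPM in IL4KO_chow. The groups did not overlap (-0.85, SE 0.225, FDR 0.0224), and without IL4KO_HFD replicate 2, the lowest library, the value was -0.57 (FDR 0.161). The call also ended without IL4KO_HFD replicate 1 (FDR 0.0584) or IL4KO_chow replicate 3 (FDR 0.0508). Stard4 was not called in dKO or WT with the diet, at 0.03 (SE 0.193, FDR 0.925) and -0.13 (SE 0.198, FDR 0.696).

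Mylip, the ubiquitin ligase that degrades lipoprotein receptors and is induced by LXR, the receptor for oxysterols, rose with the diet where the enzymes did not. It held 32.1, 40.3 and 26.3 CPM in IL4KO_HFD, against 18.5, 21.1, 21.3 and 18.5 CPM in IL4KO_chow (0.73, SE 0.149, FDR 0.00421). The FDR was 0.0621 at 0.57 without IL4KO_HFD replicate 2. It held 23.4, 27.5, 23.8 and 22.9 CPM in WT_HFD, against 18.8, 16.6, 17.3 and 19.9 CPM in WT_chow (0.43, SE 0.137, FDR 0.0311). Both pairs of groups were apart. The WT call ended without WT_chow replicate 2 or 3 or WT_HFD replicate 1, 2 or 3 (FDR up to 0.0964). In dKO_HFD it held 25.7, 25.5, 30.1 and 23 CPM, against 26.9, 16.5, 25.1 and 24.8 CPM in dKO_chow (0.17, SE 0.129, FDR 0.312). On chow it was higher in dKO than in WT (0.36, SE 0.134, FDR 0.0339), a call lost in 7 of the 23 fits (FDR up to 0.114 without dKO_chow replicate 1).

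The diet effects were then compared between genotypes. The dKO minus WT difference was called for 7 members, 6 of them lower in dKO, where 25.2% of all tested genes were called and 12.6% were lower. It was -1.80 for Mvd (SE 0.451, FDR 0.00995), -1.08 for Hmgcs1 (SE 0.314, FDR 0.0188) and -1.03 for Insig1 (SE 0.285, FDR 0.0143). It was -0.82 for Lbr (SE 0.187, FDR 0.00479), -0.79 for Acat2 (SE 0.171, FDR 0.00393) and 0.62 for Scap (SE 0.14, FDR 0.0046). For Fdps it was -0.83 (SE 0.301, FDR 0.0496), lost in 16 of the 23 fits without 1 library (FDR up to 0.102 without WT_HFD replicate 4). The share of members called was thus near that of all genes.

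The dKO minus IL4KO difference was also called for 7 members, where 24.4% of all genes were called. Those lower were Mvd (-1.81, SE 0.511, FDR 0.0165), Hmgcs1 (-1.23, SE 0.326, FDR 0.0107), Fdft1 (-1.03, SE 0.331, FDR 0.0289), Acat2 (-0.72, SE 0.178, FDR 0.00691) and Mylip (-0.56, SE 0.197, FDR 0.041). Scap (0.57, SE 0.146, FDR 0.00844) and Stard4 (0.88, SE 0.296, FDR 0.0357) were higher. The Fdft1 call ended without IL4KO_chow replicate 4, IL4KO_HFD replicate 3, dKO_chow replicate 2 or 4 or dKO_HFD replicate 3 (FDR up to 0.0878). The Stard4 call ended in 6 and the Mylip call in 10 of the 23 fits, each at its weakest without IL4KO_HFD replicate 2 (FDR 0.122 and 0.219). Without dKO_chow replicate 4 the count was 4. For IL4KO minus WT edgeR called 0 members, where 0.0465% of all genes were called (0.031% lower). At an unadjusted p under 0.05 there were 3, and DESeq2 and limma-voom called 0.

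Markers of other liver cells moved with the same dKO groups. In dKO with the diet 9 of 9 neutrophil, 8 of 8 cholangiocyte, 7 of 8 Kupffer cell and 6 of 8 monocyte-derived macrophage markers were lower, and 6 of 9 hepatocyte markers were higher and 1 was lower. Also lower were 5 of 7 T and NK cell and 5 of 7 cell cycle markers, while 3 of 7 endothelial cell markers were higher. Of all tested genes 20.5% were lower and 19.4% higher in this comparison. Summed neutrophil markers were at 2.56 to 58.1 CPM in dKO_HFD, against 129 to 412 CPM in dKO_chow. Summed cholangiocyte markers were at 15.2 to 36.1 CPM in dKO_HFD, against 49.6 to 95.3 CPM in dKO_chow. Summed hepatocyte markers were at 127000 to 134000 CPM in dKO_HFD, against 83500 to 97300 CPM in dKO_chow. On chow 9 of 9 neutrophil and 8 of 8 cholangiocyte markers were higher in dKO than in IL4KO, and 6 of 9 hepatocyte markers were lower. Of all tested genes 23% were higher and 22.2% lower there. Elane and Mpo, granule genes expressed mainly in neutrophil precursors, were at 0 in all IL4KO_HFD libraries, whose summed neutrophil markers were at 1.49 to 6.15 CPM. The part of these markers in the sterol results was not tested.

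The highest neutrophil level among dKO_HFD livers was in replicate 4, at 2.13 against -1.37 to -1.22 in the other 3. Its member level of -0.02 lay between those of the others, and without it 14 members were called for the diet in dKO. Among dKO_chow livers replicate 3 had the highest neutrophil level (4.97) and the lowest member level (0.18).

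Genes around the pathway, taken from lists of 8 or 9 genes each that hold no members, moved less uniformly. Of 9 genes for sterol sensing and SREBP processing, 2 rose and 1 fell with the diet in dKO, where 40% of all tested genes were called. In dKO against IL4KO on chow 2 were higher and 2 lower, where 45.2% were called, so neither count stands above that of all genes. Pgrmc1, a haem-binding membrane protein, held 775, 718, 719 and 747 CPM in dKO_chow, against 1390, 1330, 1300 and 1440 CPM in IL4KO_chow (-0.88, SE 0.113, FDR 4.39e-06). Erlin2, of the complex that degrades sterol-sensitive membrane proteins, was lower by the same comparison (-0.37, SE 0.0803, FDR 0.000796). Rnf139 was higher in dKO than in WT on the high-fat diet (0.38, SE 0.0661, FDR 0.000365), and Rnf145 rose with the diet in WT (0.71, SE 0.163, FDR 0.00469); both encode ubiquitin ligases of the endoplasmic reticulum.

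Of 9 LXR-related and sterol export genes, 3 rose and 1 fell with the diet in dKO, and 1 was higher and 4 lower in dKO than in WT on chow. These counts are near the 40% and 46.3% of all tested genes called in those comparisons. Abcg5 and Abcg8, whose products form the transporter that secretes cholesterol into bile, ran against the enzymes in dKO. Summed hepatocyte markers were also higher in dKO_HFD than in dKO_chow, and the part of these markers was not tested. In WT the mean level was 146 CPM in WT_HFD and 145 CPM in WT_chow for Abcg8, and 113 and 99.6 CPM for Abcg5. Abcg8 held 137, 185, 149 and 127 CPM in dKO_HFD, against 61.8, 57.5, 85.5 and 60.2 CPM in dKO_chow (1.18, SE 0.149, FDR 8.35e-06). Abcg5 held 94.8, 117, 104 and 68 CPM in dKO_HFD, against 41.5, 43.3, 55.4 and 45.7 CPM in dKO_chow (1.05, SE 0.144, FDR 1.86e-05). All dKO_HFD libraries were above all dKO_chow libraries for both. On chow dKO was below WT for Abcg8 (-1.13, SE 0.149, FDR 7.07e-06) and Abcg5 (-1.10, SE 0.145, FDR 7.18e-06). Lpcat3, a phospholipid acyltransferase, rose with the diet in dKO (0.50, SE 0.0947, FDR 0.000322), and Abca1, a cholesterol exporter, rose with it in WT (0.40, SE 0.104, FDR 0.00975).

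Of 8 genes for sterol storage and lysosomal release, 3 rose and 2 fell with the diet in dKO, 1 rose in IL4KO and 1 rose in WT, where 40%, 9.08% and 19.5% of all tested genes were called. Nceh1, a cholesteryl ester hydrolase, rose in every genotype, by 0.70 in dKO (SE 0.128, FDR 0.000244), 1.09 in IL4KO (SE 0.145, FDR 0.00015) and 1.10 in WT (SE 0.134, FDR 2.03e-05). In WT_HFD it held 46.9, 41, 59.9 and 50.2 CPM, against 25.4, 25.8, 20.8 and 20.1 CPM in WT_chow. In dKO with the diet Stard5, a sterol carrier, rose (0.59, SE 0.0795, FDR 1.37e-05) and Npc2, the lysosomal cholesterol carrier, fell (-0.68, SE 0.102, FDR 3.87e-05). Lipa, the lysosomal acid lipase, was lower in dKO than in WT on the high-fat diet (-0.86, SE 0.113, FDR 2.11e-05). Of 8 genes of the isoprenoid branch, which leaves the pathway at farnesyl diphosphate, 1 rose with the diet in IL4KO, 1 rose in WT and 2 were lower in dKO than in WT on chow, where 9.08%, 19.5% and 46.3% of all tested genes were called. Pdss1, of ubiquinone synthesis, rose with the diet in WT (0.98, SE 0.255, FDR 0.00994). Coq2, of the same route, rose with the diet in IL4KO (0.34, SE 0.107, FDR 0.0466) and was lower in dKO than in WT on chow (-0.24, SE 0.0951, FDR 0.042). Rabggta, a prenyltransferase subunit, was also lower there (-0.29, SE 0.114, FDR 0.0428).

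Levels of different genes can be set side by side only per exon length. Per kilobase of annotated exons, the mean level in WT_chow was 166 CPM for Insig2, 156 for Sc5d, 141 for Hmgcs1, 125 for Insig1, 116 for Ebp and 112 for Idi1. It was 17.5 for Mvd, 11.3 for Mvk, 10.1 for Srebf2, 2.73 for Lbr and 0.0304 for Npc1l1. In dKO_chow Idi1 (191) and Hmgcs1 (187) led, and Mvd stood at 32.1. On this scale Mvd stood well below Hmgcs1 and Idi1 in both groups.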

How the data were processed

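The deposited table held estimated counts per gene, made by the authors from stranded mRNA libraries of perfused livers. Per the submitters' processing notes, bcl2fastq 2.16, TopHat2 2.0.8, Partek and mm10 were used; which annotation and strand option served the counting is not stated there. A second table held log2 values the authors had normalized, and served as an alternative only. The estimated counts were rounded and tested with edgeR 4.0.16 (R 4.3.3): filterByExpr by group, TMM scaling, 1 robust quasi-likelihood fit over 23 libraries with 17 residual degrees of freedom, and 12 contrasts, each adjusted by Benjamini-Hochberg over 12891 genes with an FDR threshold of 0.05. SE is the log2 fold change divided by the square root of F. P-values rest on the spread between mice within groups, as 1 estimate per gene shared by all groups, not on the compared groups alone. The fit was tested on simulated data.

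The genes named are all 26 members, and from each list of other genes up to 4 called ones by lowest FDR. Members and lists were chosen with earlier results of these data known. Labels give no replicate numbers; replicates are numbered in accession order. Alternatives were other scalings and filters, DESeq2 1.42.0, limma-voom and limma 3.58.1 on the log2 values, thinning to 7114454 counts, the compared groups alone and leaving out libraries. Promoters come from RefSeq on GRCm38.p6.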

Additional observations from a re-analysis of the deposited data

Results flagged for a closer look

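In 4 of 125 tested sets of 4 libraries, 1 library lay far from the others by Dixon's test, and chance alone gives about 1 in 20. Insig1 was at 670 CPM in WT_HFD replicate 4, against 427 to 454 CPM in the other 3. Insig2 was at 456 CPM in IL4KO_chow replicate 4, against 388 to 394 CPM. Ebp was at 233 CPM in dKO_chow replicate 4, against 219 to 221 CPM. Fdps was at 72 CPM in IL4KO_chow replicate 2, where the others were at 70.6 CPM.

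The diet effect differed between genotypes, tested as an interaction, for 7 members between dKO and WT and for 7 between dKO and IL4KO. Each is 28% of the tested members, near the 25.2% and 24.4% of all tested genes called. As log2 differences, dKO minus WT was -1.80 for Mvd, -1.08 for Hmgcs1, -1.03 for Insig1, -0.83 for Fdps, -0.82 for Lbr, -0.79 for Acat2 and 0.62 for Scap. The dKO minus IL4KO difference was -1.81 for Mvd, -1.23 for Hmgcs1, -1.03 for Fdft1, -0.72 for Acat2, -0.56 for Mylip, 0.57 for Scap and 0.88 for Stard4.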

How the results depend on the processing

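Of the 80 calls among 300 pairs of a tested member and a comparison, 49 held in every setting, and 0 changed direction. Under the other settings the count of members called moved by over 1.5 times in these cases, and the cause was not tested. For the diet in IL4KO it was 1 with the compared groups alone and 7 with dKO_HFD replicate 4 and IL4KO_HFD replicate 3 left out, against 3. For IL4KO against WT it was 12 on chow with the compared groups alone, against 5, and 5 on the high-fat diet with DESeq2, against 3. For dKO against IL4KO on the high-fat diet it was 1 with DESeq2 and 3 without those 2 libraries, against 0. Leaving out those libraries, or dKO_chow replicate 2 and dKO_HFD replicate 4, was chosen after seeing the data. IL4KO_HFD replicate 2, which stood apart from its group, stayed in under both settings. With only IL4KO_HFD replicate 2 left out, 0 members were called for the diet in IL4KO.

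Leaving out 1 library at a time gave 10 to 16 members for the diet in dKO, 0 to 6 in IL4KO and 1 to 5 in WT. It gave 18 to 19 for dKO against IL4KO on chow and 0 to 5 on the high-fat diet, 6 to 16 for dKO against WT on chow and 4 to 8 on the high-fat diet, and 3 to 7 for IL4KO against WT on chow and 2 to 4 on the high-fat diet. The interactions gave 4 to 7 for dKO minus IL4KO, 6 to 9 for dKO minus WT and 0 to 0 for IL4KO minus WT. No paired analysis was possible because the labels give no replicate numbers. Depth limits Npc1l1, with 0 to 4 counts.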
